A study of Mus musculus with 48 samples.

Results

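The genes described here are 7 genes used to recognise the granule neurons of the cerebellum: Calb2, Pax6, Cbln1, Cbln3, Zic2, Grm4 and Slc17a7. They were chosen by symbol with earlier results of these data known. They were looked up in the 4 gene tables of a study of the chromatin remodeler Chd4. Each was listed at least once, as 7 of the 6143 genes listed in any table. The table of Chd4 conditional knockout (cKO) against wild type (WT) listed 5 of them, the table of rotarod training against rest listed Cbln1, and the table of ribosome pull-down against input listed Grm4 and Slc17a7. The table of cKO against WT pull-downs listed 0 of the 7, where 0.147% of all features were listed. A table lists a gene if the authors' own test gave it an adjusted p below 0.05. An unlisted member therefore has no value, and its absence does not show that it stayed the same.

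All samples were mouse cerebellum. Messenger RNA was sequenced at postnatal days 27 to 28 (P27-28) from 4 WT and 4 Chd4 cKO samples, and from 4 samples of rotarod-trained mice and 4 of resting mice (columns named home), all of WT genotype. The rotarod is a turning rod used to train balance. At postnatal day 12 (P12), 6 days after electroporation, ribosome-bound RNA was purified by Sync-TRAP, with 3 pull-downs (IP) and 3 inputs of WT and the same numbers of Chd4 cKO. The labels name neither the promoter that drives Cre nor sex or strain, and they do not say whether samples were single or pooled animals. The p-values therefore measure the spread between these samples, which may be technical.

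Granule neurons are small excitatory neurons and the most numerous neurons of the brain. Their axons, the parallel fibers, form glutamate synapses on Purkinje cells. Pax6 and Zic2 encode transcription factors of the granule lineage, and Calb2 encodes calretinin, a cytosolic calcium buffer. Cbln1 is secreted by parallel fibers and bridges presynaptic neurexins to receptors on Purkinje cell spines, and Cbln3 is a family member that is secreted together with Cbln1. Grm4 encodes mGluR4, an inhibitory glutamate receptor on parallel fiber terminals, and Slc17a7 encodes VGLUT1, which loads glutamate into synaptic vesicles. Calb2 is also a marker of unipolar brush cells, a less frequent excitatory interneuron of the granular layer.

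Levels are log2 CPM, meaning the log2 of reads relative to library size, and differences are in log2 CPM with the standard error from limma. Recovered depths were 13.7 to 15.6 M reads in the WT and cKO libraries and 13.7 to 16.8 M for rotarod and rest. For the WT pull-downs, few low values gave an uncertain 25.2 to 27.1 M, read from the table of cKO against WT pull-downs. The depth of the inputs is unknown. The targeted gene, Chd4, fell by 0.44 ± 0.06 in cKO (limma adjusted p = 0.00199, n = 4 per genotype), with no overlap between the groups. In whole tissue, fewer cells of a type and less RNA per cell cannot be told apart. The words rose and fell are kept for genes whose limma p, Benjamini-Hochberg adjusted over all features the authors tested, was below 0.05.

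The comparison of cKO with WT asks which genes depend on Chd4 in the cerebellum. It divided the members: Calb2 and Pax6 rose, Cbln3 and Zic2 fell, and Grm4 was listed as lower without passing limma. Of the 7 members, 5 were listed in the authors' deposited table, where 20.3% of all features tested were listed. The 2 listed as higher stand beside 11.0% of features, and the 3 listed as lower beside 9.29%. Limma passed 4 members, against 13.2% of all features. These were 2 higher, against 8.17%, and 2 lower, against 5.04%. The members and the gene lists below were chosen with earlier results of these data known. The shares of all features set beside them are therefore not a test. The groups did not overlap for 4 of the 5 listed members, and this held for 78.0% of all listed genes, which had been selected for differing. Cbln1 and Slc17a7 have no value in this table.

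**Figure D1:**
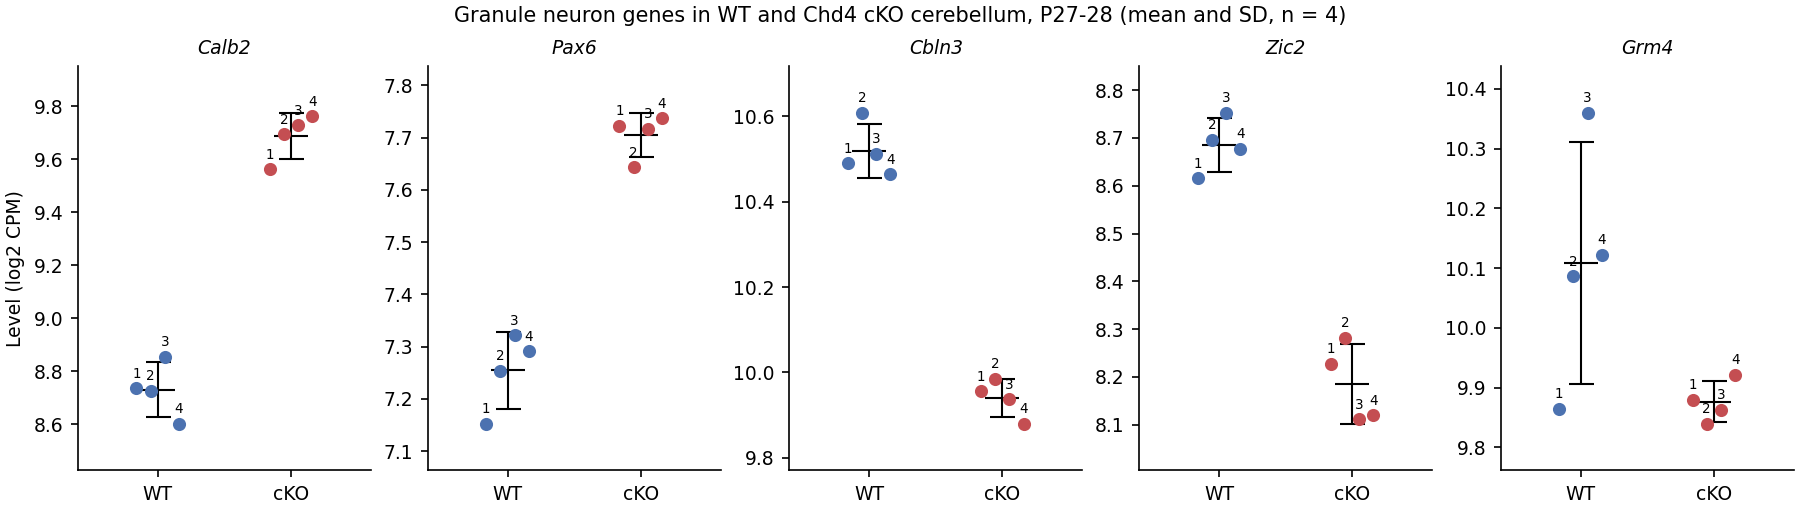
Level of each listed member in log2 CPM (vertical axes, which differ between panels and do not start at 0) in the 4 WT (blue) and 4 cKO (red) messenger RNA libraries at P27-28. Points are libraries with their replicate numbers, bars show mean and SD, and the groups are apart for Calb2, Pax6, Cbln3 and Zic2 but overlap for Grm4.

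Among the transcription factors, Pax6 (ENSMUSG00000027168) was at 7.15, 7.25, 7.32 and 7.29 log2 CPM in WT libraries 1 to 4. In cKO libraries 1 to 4 it was at 7.72, 7.64, 7.72 and 7.74. Every cKO library was above every WT library. The mean went from 7.26 ± 0.07 to 7.71 ± 0.04 log2 CPM (SD, n = 4), a rise of 0.45 ± 0.05 or 1.37-fold (limma adjusted p = 0.00104). The exact two-sided permutation test gave p = 0.0286, the smallest that 4 libraries against 4 allow. Pax6 was counted at 2110 to 3300 reads per library, the fewest of the listed members, for a counting error of at most 2.18%. The antisense gene Pax6os1, named after its value was seen, overlaps Pax6 and rose by 0.86 ± 0.15 (limma adjusted p = 0.00711). It reached no more than 0.74 log2 CPM in any library. Whether reads were counted by strand is not given in the sources used here, and without strand the reads of both genes cannot be told apart where they overlap.

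Zic2 (ENSMUSG00000061524) was at 8.62, 8.70, 8.75 and 8.68 log2 CPM in WT libraries 1 to 4 and at 8.23, 8.28, 8.11 and 8.12 in cKO libraries 1 to 4. Every cKO library was below every WT library. Its mean went from 8.69 ± 0.06 to 8.19 ± 0.08 log2 CPM (SD, n = 4). It fell by 0.50 ± 0.06, which left 70.7% of the WT level (limma adjusted p = 9.32e-04, exact permutation p = 0.0286). Of the 14 genes of the Zic and Pax families, 1 rose, where 8.17% of all features did, and 2 fell, where 5.04% did. A further 2 were listed as lower and 9 were not listed. Zic5, a paralog that lies next to Zic2 in the genome, fell by 0.25 ± 0.07 (limma adjusted p = 0.0477). Pax2, a gene of inhibitory interneurons, differed by -0.34 ± 0.12 and did not pass limma (adjusted p = 0.111). Pax6 thus stood opposite to Zic2 and Zic5, and the log2 difference between Pax6 and Zic2 within a library went from -1.43 ± 0.03 in WT to -0.48 ± 0.12 in cKO (SD, n = 4).

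RefSeq start-site windows on build GRCm38.p6 were at hand for 3 of the 7 members, Pax6, Cbln3 and Slc17a7. The 250 bases before the first of 2 Pax6 starts and before the Cbln3 start are shown as one member that rose and one that fell, 5′ to 3′ on the strand of the gene. Capitals mark matches to any of 6 short motifs searched on both strands. These were the cyclic AMP response element TGACGTCA, an E-box spelled CAGCTG, a second E-box spelled CAGATG, the promoter element CCAAT, the GC box spelled GGGCGG and the TATA box spelled TATAAA. None of the 6 contains another. The Pax6 window lies at chr2:105668646-105668895 on the plus strand and the Cbln3 window at chr14:55884257-55884506 on the minus strand.
Pax6: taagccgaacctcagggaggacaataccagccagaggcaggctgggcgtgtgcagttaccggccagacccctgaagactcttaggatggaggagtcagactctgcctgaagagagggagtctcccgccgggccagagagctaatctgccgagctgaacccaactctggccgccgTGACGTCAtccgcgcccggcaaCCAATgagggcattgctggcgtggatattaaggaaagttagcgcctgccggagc
Cbln3: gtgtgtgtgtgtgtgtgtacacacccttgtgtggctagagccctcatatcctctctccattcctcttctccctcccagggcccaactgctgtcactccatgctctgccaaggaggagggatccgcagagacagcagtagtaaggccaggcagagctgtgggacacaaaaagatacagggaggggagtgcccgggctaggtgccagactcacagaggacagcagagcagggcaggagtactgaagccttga
The Pax6 window shown holds TGACGTCA, beginning 76 bases before the start, and CCAAT, read on the gene's strand, beginning 54 bases before it. Of all 32851 windows of this length, 1.55% hold TGACGTCA and 33.8% hold CCAAT. The Slc17a7 window, not shown, holds GGGCGG 3 times, and 32.7% of all windows hold it. The Cbln3 window, which opens with a run of gt repeats, holds none of the 6 letter strings. It is 57.6% G and C and the Pax6 window shown 60.8%, beside a median of 52.4% over all windows. The window before the second Pax6 start, not shown, is 47.6% G and C and also holds none of the 6. The matches describe letters in a window, not sites of binding.

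Calb2 (ENSMUSG00000003657) had the widest change of the members in this comparison. It was at 8.74, 8.73, 8.85 and 8.60 log2 CPM in WT libraries 1 to 4 and at 9.56, 9.69, 9.73 and 9.76 in cKO libraries 1 to 4. The lowest cKO library was above the highest WT library by more than the whole spread of either group. The mean went from 8.73 ± 0.10 to 9.69 ± 0.09 log2 CPM (SD, n = 4), a rise of 0.96 ± 0.07 or 1.94-fold (limma adjusted p = 7.97e-05, exact permutation p = 0.0286). Among the 2990 genes listed as higher, 772 had a difference at least as large.

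Calb2 is shared by granule neurons and unipolar brush cells, so the other unipolar brush cell markers are given beside it. Of 9 such markers without Calb2, 6 were listed as lower, where 9.29% of all features were, and 1 as higher, where 11.0% were. The other 2 were not listed and are left out of the sum. The 7 listed markers summed to 782 to 816 CPM in WT and 673 to 694 CPM in cKO, opposite in direction to Calb2. They had been selected for differing, so this sum is no separate result. Lmx1a differed by -0.80 ± 0.32 and did not pass limma (adjusted p = 0.206). Tbr1, which also marks cerebellar nuclear neurons, rose by 0.88 ± 0.20 (limma adjusted p = 0.0214) at a mean level of only 1.19 log2 CPM in cKO. None of the 6 lower markers passed limma.

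Genes of calcium-binding EF-hand proteins moved both ways. Of 10 in the list, 3 rose, Calb2 among them, where 8.17% of all features did, and 1 fell, where 5.04% did. A further 2 were listed without passing limma, and 4 were not listed. Hpca, the neuronal calcium sensor hippocalcin, rose by 1.38 ± 0.07, and Cabp1, a calmodulin-like calcium sensor, by 0.47 ± 0.06. Hpcal1, a hippocalcin-like sensor, fell by 0.34 ± 0.05. Calb1, the calbindin of Purkinje cells, differed by -0.16 ± 0.06 and Ncs1 by 0.26 ± 0.07 (limma adjusted p = 0.149 and 0.0541). The median difference of the 6 listed genes was 0.36, beside 0.21 over all listed genes.

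Cbln3 (ENSMUSG00000040380) was at 10.49, 10.61, 10.51 and 10.46 log2 CPM in WT libraries 1 to 4 and at 9.96, 9.99, 9.94 and 9.88 in cKO libraries 1 to 4. Every cKO library was lower than every WT library, and both groups were tight. Its mean went from 10.52 ± 0.06 to 9.94 ± 0.04 log2 CPM (SD, n = 4). Cbln3 fell by 0.58 ± 0.05, which left 66.9% of the WT level (limma adjusted p = 2.23e-04, exact permutation p = 0.0286). With 13620 to 22730 reads per library its counting error was at most 0.86%. Within a library, the log2 difference between Calb2 and Cbln3 went from -1.79 ± 0.10 in WT to -0.25 ± 0.12 in cKO (SD, n = 4). This pair, like Pax6 and Zic2 above, was picked after the values were seen, and its change follows from that choice. The ratio does not depend on how libraries were scaled, and its size is not corrected for gene length.

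The cerebellin system, meaning the cerebellins, the related C1q-like proteins, their neurexin partners and their postsynaptic receptors, was listed on the lower side. Of 14 genes, 7 were listed as lower, where 9.29% of all features were, and 3 of these fell, where 5.04% did. None was listed as higher and 7 were not listed. The median difference of the 7 listed genes was -0.34, beside 0.21 over all listed genes. It was -0.27 over the 48 listed markers of other cells described below. Besides Cbln3, Grid1, a receptor gene of this list, fell by 0.23 ± 0.05 (limma adjusted p = 0.0181). C1ql3 and C1ql1, the latter a synaptic organizer of climbing fibers, differed by -0.34 ± 0.13 and -0.48 ± 0.28 without passing limma (adjusted p = 0.179 and 0.624). Cbln2 differed by -0.56 ± 0.63 at a level below 1 CPM, and its groups overlapped. Cbln3 made up most of the summed level of the 7 listed genes, which was 2048 to 2217 CPM in WT and 1476 to 1531 CPM in cKO. The unlisted genes, Cbln1 among them, are left out of this sum.

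Grm4 (ENSMUSG00000063239) was at 9.86, 10.09, 10.36 and 10.12 log2 CPM in WT libraries 1 to 4 and at 9.88, 9.84, 9.86 and 9.92 in cKO libraries 1 to 4. The cKO libraries were close together and the WT libraries were spread widely, and WT library 1 lay among the cKO libraries. The means were 10.11 ± 0.20 and 9.88 ± 0.03 log2 CPM (SD, n = 4), a difference of -0.23 ± 0.10 (limma adjusted p = 0.224, exact permutation p = 0.0857). In the authors' deposited table its adjusted p is 0.0222. The difference was -0.31 and passed limma without WT library 1 (adjusted p = 0.0424), and it was -0.15 without WT library 3 (adjusted p = 0.434). Grm2, the metabotropic receptor of Golgi cells, was the other listed gene of 8 in the family. It fell by 0.42 ± 0.09 (limma adjusted p = 0.0211). Of 7 vesicular transmitter transporter genes, the inhibitory transporter gene Slc32a1 was listed and fell by 0.37 ± 0.10 (limma adjusted p = 0.0447), and Slc17a7 was not listed.

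In the wider list of 32 granule neuron genes, members included, 7 rose, where 8.17% of all features did, and 6 fell, where 5.04% did. A further 5 were listed without passing limma, and 14 were not listed. Without the 7 members, 5 of 25 rose, 4 fell and 4 more were listed. The list's median difference was -0.21. Over the 744 listed genes with a mean of at least 7 log2 CPM, a limit set after seeing the levels, the median was -0.16, and over all listed genes it was 0.21. Besides Calb2 and Pax6, the potassium channel gene Kcnk9 rose by 0.60 ± 0.10, the transcription factor gene Nfia by 0.45 ± 0.06, the secreted guidance protein gene Reln by 0.37 ± 0.06, the vesicle release gene Cadps2 by 0.36 ± 0.06 and the GABA-A receptor gene Gabra6 by 0.20 ± 0.05. Besides Cbln3 and Zic2, the Rac regulators Chn2 and Tiam1 fell by 0.34 ± 0.04 and 0.33 ± 0.06, the transcription factor gene Neurod1 by 0.32 ± 0.07, and Zic5 fell by 0.25 ± 0.07. Among these genes the largest limma adjusted p was the 0.0477 of Zic5. The NMDA receptor gene Grin2c, Rbfox3 and Kcnd2 differed by -0.34, -0.20 and 0.16 and did not pass limma. Reln, Cadps2, Gabra6, Neurod1, Tiam1, Chn2, Grin2c, Rbfox3 and Kcnd2 lay outside the naming rule for this comparison and were named after their values were seen.

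**Figure D2:**
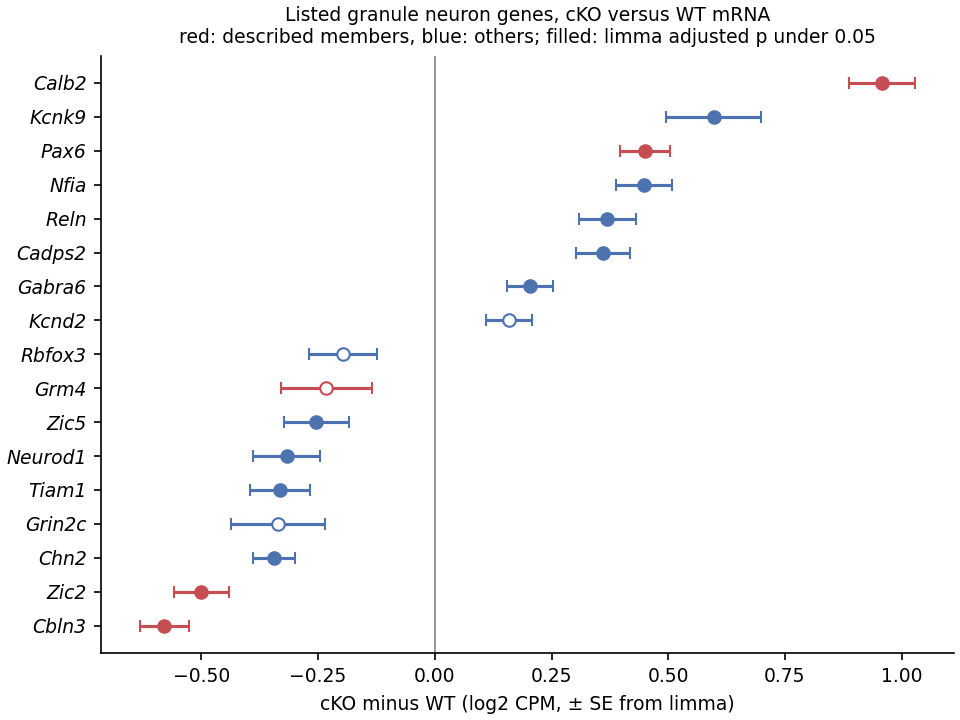
Difference of cKO minus WT in log2 CPM (horizontal axis) with the standard error from limma for 17 of the 18 listed genes in the granule neuron list (vertical axis), with the 7-gene set in red and the others in blue. Filled points passed limma, 7 of them above 0 and 6 below, with Calb2 at 0.96 and Cbln3 at -0.58 as the outermost.

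Genes of granule cell progenitors and newborn granule neurons were set beside these, since Pax6 and Zic2 are also active in the progenitors. Of 22 such genes, 4 rose, where 8.17% of all features did, and 4 fell, where 5.04% did. A further 4 were listed and 10 were not, and the listed genes had a median difference of 0.31. Nhlh1, a helix-loop-helix factor gene of newborn neurons, rose from a mean of -1.85 log2 CPM in WT, close to the floor of the values, to 6.25 in cKO. Elavl2, an RNA-binding protein gene of neurons, rose by 3.24 ± 0.08, and the axon guidance genes Robo3 and Draxin rose by 1.14 ± 0.20 and 0.89 ± 0.13. Gli2, a transcription factor gene of Sonic hedgehog signaling in progenitors, fell by 0.53 ± 0.10 (limma adjusted p = 0.0113). The summed level of the 12 listed genes was 846 to 902 CPM in WT and 1091 to 1155 CPM in cKO. Elavl2 went from a mean of 4.85 log2 CPM in WT to 8.09 in cKO. Elavl2 and Nhlh1 together gained more CPM than the listed genes did as a whole, so the sum does not show a general rise.

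Markers of other cells were lower where they were listed, with 2 exceptions. Over 8 marker lists, counted without Calb2, 46 of 97 genes were listed as lower, where 9.29% of all features were, 2 were listed as higher and 49 were not listed. The median difference of the 48 listed markers was -0.27, beside 0.21 over all listed genes. Of the 744 listed genes with a mean of at least 7 log2 CPM, 402 were lower and 342 higher, with a median of -0.16. Among the markers, limma passed 23 of the lower genes, against 5.04% of all features, and 1 of the higher genes, against 8.17%. The summed level of the 48 listed markers was 20451 to 22508 CPM in WT and 18202 to 18756 CPM in cKO. Every sum here leaves out the unlisted genes, and the listed genes had been selected for differing. Where all listed markers of a cell type were lower, a lower sum follows and is no separate result. The summed level of the 18 listed granule neuron genes was 8134 to 9151 CPM in WT and 8329 to 8429 CPM in cKO, and these ranges overlap. For Purkinje cells, 6 of 15 markers fell and none rose. The 11 listed ones summed to 9061 to 9585 CPM in WT and 7675 to 8257 CPM in cKO. Pcp2, a Purkinje cell gene, fell by 0.37 ± 0.06, the most of these markers. Of the inhibitory interneuron markers 6 of 14 fell, with Slc6a5, the glycine transporter gene of Golgi cells, at -0.45 ± 0.12, and the sum went from 1088 to 1205 CPM in WT to 923 to 1029 CPM in cKO. Of the astrocyte and Bergmann glia markers 3 of 14 fell, and the sum was 4300 to 4475 CPM in WT and 3678 to 3979 CPM in cKO. Of the oligodendrocyte markers 2 of 16 fell, and their sums overlapped, at 5211 to 6975 CPM in WT and 5095 to 5401 CPM in cKO. Of the vascular markers 6 of 12 fell, with a sum of 160 to 188 CPM in WT and 123 to 142 CPM in cKO. The microglia list had 1 listed gene of 12, Ctss, at 0.41 ± 0.14 without passing limma (adjusted p = 0.117), and the cerebellar nuclear list had 1 of 8, Tbr1. No listed marker was at 0 in any library. The part of these shifts in the member values was not tested.

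**Figure D3:**
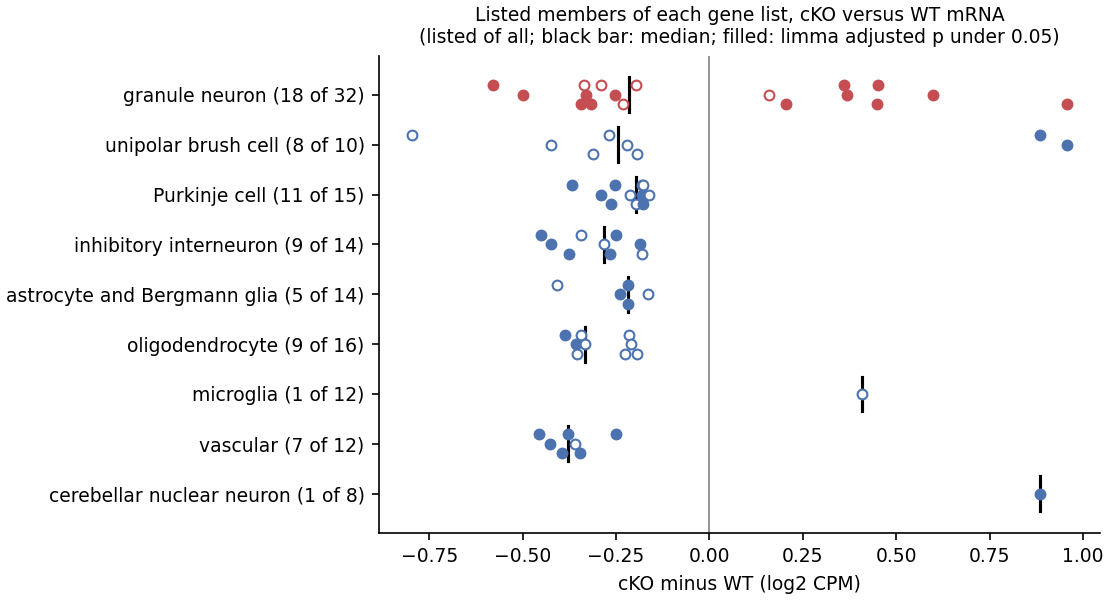
Difference of cKO minus WT in log2 CPM (horizontal axis) for each listed gene of the granule neuron list (red) and of 8 marker lists of other cells (blue), with the number listed of all in each row label. Unlike the counts in the text, the unipolar brush cell row includes Calb2 (8 of 10 listed), and a gene shared by lists, such as Tbr1, is drawn in each. Black bars are medians and filled points passed limma; the granule row reaches from -0.58 to 0.96, and every listed Purkinje, inhibitory interneuron, astrocyte, oligodendrocyte and vascular marker lies below 0.

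For each member, the listed genes with the closest profile over the 8 libraries were sought among genes within 2 log2 CPM of its mean level. Profiles were centered on the WT mean and compared by root mean square difference. They were not scaled, so a close match largely restates a similar difference between cKO and WT. The same measure, centered on the control group, is used for the comparisons below. Gprasp1, a sorting protein of G-protein coupled receptors, was closest to Calb2, at 0.07 log2 CPM, followed by Sipa1l2 at 0.11. Numbl, an endocytic adaptor, was closest to Pax6, at 0.02, followed by the kinesin gene Kifc2 at 0.04. For Cbln3 the closest gene was another member, Zic2, at 0.08, with Btbd3 next at 0.08. For Zic2 itself the microtubule gene Mtcl1 and Phyhip were closer, at 0.05 and 0.06. Ppip5k1 and Bsn, the latter a scaffold of presynaptic active zones, were closest to Grm4, at 0.05 and 0.06, and neither passed limma. Between 233 and 1897 genes were compared per member.

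The comparison of rotarod training with rest concerns genes that respond to motor activity. Cbln1 (ENSMUSG00000031654) was the 1 member listed of 7, where 3.38% of all features were listed, and it was listed as lower, as 1.31% were. It was at 10.49, 10.79, 10.70 and 10.49 log2 CPM in the rest libraries of columns 1, 2, 5 and 6. In the rotarod libraries of columns 3, 4, 7 and 8 it was at 10.35, 10.05, 10.17 and 10.22. All 4 trained libraries were below all 4 resting libraries, as groups did not overlap in 84.9% of the listed genes. The mean went from 10.62 ± 0.15 to 10.20 ± 0.12 log2 CPM (SD, n = 4), which is 74.8% of the resting level. The difference of -0.42 ± 0.10 did not pass limma (adjusted p = 0.130, exact permutation p = 0.0286), while the adjusted p in the authors' deposited table is 0.0106. Limma passed 0 of the 7 members, against 0.621% of all features, and Cbln1 had an unadjusted p of 0.00218. Counting error was at most 0.77% of its 16710 to 25480 reads per library.

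By level, Cbln1 ranked 3 among the 908 genes listed for training, and 211 of the 353 genes listed as lower differed by at least as much. The closest profile among the 12 genes of similar level was that of Cnr1, the cannabinoid receptor gene of parallel fiber terminals, at a root mean square difference of 0.10 log2 CPM. Cnr1 fell by 0.38 ± 0.06 (limma adjusted p = 0.0403). Zbtb18, a transcriptional repressor gene, came next at 0.24. The only other gene of the granule neuron list in this table was Tiam1, at 0.32 ± 0.10 with overlapping groups (limma adjusted p = 0.315). No other gene of the cerebellin system was listed. Of the 97 markers of other cells, 3 were listed: Eomes, of unipolar brush cells, rose by 1.31 ± 0.18 (limma adjusted p = 0.0237), and Sox9 of glia and Flt1 of vessels differed by -0.43 ± 0.08 and 0.38 ± 0.14 without passing limma. Purkinje and interneuron markers were not listed, and whether their level moved with Cbln1 was not tested.

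**Figure D4:**
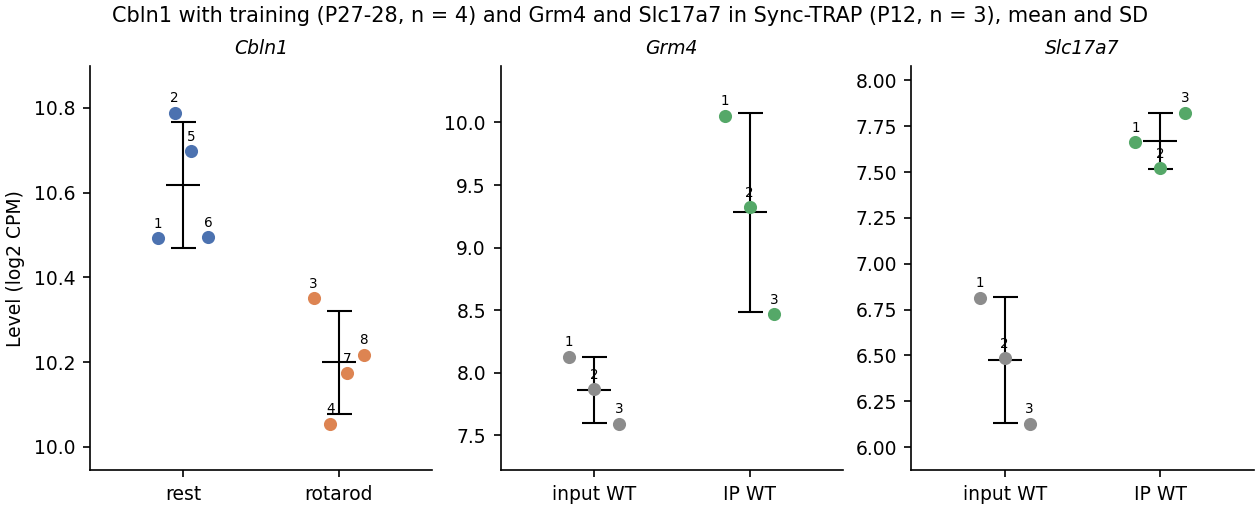
Level in log2 CPM (vertical axes, which differ between panels and do not start at 0) of Cbln1 in 4 rest and 4 rotarod libraries at P27-28, labeled by column number, and of Grm4 and Slc17a7 in 3 input and 3 IP libraries of WT at P12, labeled by replicate number. Bars show mean and SD; no pair of groups overlaps, and the IP values of Grm4 reach from 8.47 to 10.06 while those of Slc17a7 reach from 7.52 to 7.82.

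The pull-down was compared with its input in WT at P12, which asks which RNAs the tagged ribosomes enrich. Of the 7 members, Grm4 and Slc17a7 were listed, where 0.195% of all features were, and 5 were not. Both were listed as higher, as 0.115% of features were. Grm4 was at 8.13, 7.87 and 7.60 log2 CPM in input libraries 1 to 3 and at 10.06, 9.32 and 8.47 in IP libraries 1 to 3. The groups did not overlap, but the IP libraries lay far apart, with IP library 3 close to input library 1. The means were 7.86 ± 0.27 and 9.28 ± 0.79 log2 CPM (SD, n = 3), a difference of 1.42 ± 0.45. Slc17a7 (ENSMUSG00000070570) was at 6.81, 6.48 and 6.13 log2 CPM in input and at 7.66, 7.52 and 7.82 in IP libraries 1 to 3. Its IP libraries were close together and all above the inputs. The means were 6.48 ± 0.34 and 7.67 ± 0.15 log2 CPM (SD, n = 3), a difference of 1.19 ± 0.32 or 2.29-fold.

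Neither difference passed limma after adjustment over 26200 features (adjusted p = 1 for both). Their unadjusted limma p was 0.0141 for Grm4 and 0.00607 for Slc17a7. The exact permutation test gave p = 0.1 for both, the smallest that 3 libraries against 3 allow. In the authors' deposited table their adjusted p is 1.25e-05 and 0.0135. Limma passed 0 members and 3 of the 51 listed genes (0.0115% of all features), and groups did not overlap in 98.0% of the listed genes. Of the 30 genes listed as higher, 12 differed by at least as much as Grm4 and 16 by at least as much as Slc17a7, each counted with itself. With each library centered on the median of the listed genes, which is itself 0.65 higher in the pull-down, the differences were 0.77 for Grm4 and 0.55 for Slc17a7.

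The closest profiles to Grm4 over the 6 libraries were those of Trim62, at a root mean square difference of 0.34 log2 CPM, and of Slc17a7, at 0.54. Zfp385b at 0.20 and the NAD synthesis gene Nmnat2 at 0.26 were closest to Slc17a7. The 1 listed marker of other cells was Hopx, of astrocytes and Bergmann glia, at 118 CPM or more in every input library and 44.7 CPM or less in every IP library. Its difference of -2.23 ± 0.44 did not pass limma (adjusted p = 1). No other gene of the 32 granule neuron genes was listed in the pull-down comparison.

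Grm4 was the member with values in 2 comparisons, at different ages and in tables normalized separately, so no test joins them. Its mean level was 7.86 log2 CPM in WT input and 9.28 in WT pull-down at P12, and 10.11 in WT and 9.88 in cKO messenger RNA at P27-28. Per the labels, the ribosome-bound RNA at P12 was amplified before sequencing.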

How the data were processed

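Messenger RNA at P27-28 (16 samples) and Sync-TRAP RNA at P12 (12 samples) were used through 4 deposited gene tables. The 20 chromatin samples, the 3 cKO input Sync-TRAP samples and 2 lists of regions were not analysed here. The submitters' processing notes name Bowtie, build mm9 and edgeR, the authors' tool, without versions. How reads were counted, and with which annotation, is not given in the sources used here. Per the file headers, each table gives log2 CPM per library and the authors' log2 fold change, likelihood ratio (a score of their test), p-value and adjusted p-value. Every listed gene has an adjusted p under 0.05, and the number of features tested (27100, 26900, 25800 and 26200) was worked out from the deposited p-values, their ranks and their adjusted values.

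Repeated lines (49 and 5) were removed. Limma 3.58.1 in R 4.3.3 was fitted to the deposited log2 values of all listed genes of a table, with no covariate, and adjusted over the features tested. It saw only genes the authors had called, from the same libraries, so it is not independent of their test. It was tested on simulated data. A count test, foreseen for tables of counts, was not run because the tables hold no counts. Exact two-sided permutation tests (scipy 1.17.1) compared single genes. With the value of 0 reads subtracted, low values were multiples of 1 read (100% to within 0.1 read) in the messenger RNA libraries and, from 5 to 10 values each, in the pull-downs, and this gave the depth. Each depth was the best of many candidates searched. A full fit on so few values can come from the search, so the pull-down depths are uncertain. Counting error covers counting alone. All 7 members matched the reference names.

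The members and gene lists were chosen with earlier results of these data known. Named genes were the 7 members, Chd4, the 2 nearest profiles of each listed member, and up to 6 genes of each of 7 gene lists and 3 of each of 8 marker lists by size of difference. Predicted genes were left out of the profiles. Alternatives were a variance trend, adjustment over listed genes, a level filter, 1 or 5 CPM added, median centering, the authors' values, a replicate block and omission of each library. Some genes of these lists are counted in them but not reported here by name.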

Additional observations from a re-analysis of the deposited data

Results flagged for a closer look

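Named genes, counted once per comparison, came to 62, which gave 124 groups of 4 libraries. In 5 of these groups, the gap of 1 library to its nearest neighbor, relative to the group's range, was above Dixon's 95% critical value. Chance flags about 1 group in 20. In cKO library 1, Chd4 was at 8.063 log2 CPM against 7.897 to 7.9041 in the other cKO libraries. In the same library the endothelial cadherin gene Cdh5 was at 4.0021 against 3.82 to 3.84, and Hpcal1 was at 7.46 against 7.57 to 7.58. In WT library 1, Elavl2 was at 5.0047 log2 CPM against 4.7879 to 4.8026 in the other WT libraries, and Grid1 was at 5.22 against 5.08 to 5.10. None of the 7 granule neuron genes was among them.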

How the results depend on the processing

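Calb2, Pax6, Cbln3 and Zic2 kept their direction and passed limma, or the authors' test, under all 16 alternatives of the cKO comparison. Their differences ran from 0.8599 to 0.9996, from 0.35 to 0.47, from -0.68 to -0.55 and from -0.60 to -0.48. The count of members past limma there was 4 to 5, also when each library was left out in turn. Titles share replicate numbers across groups. The deviations of same-numbered libraries from their group means correlated at 0.098, 0.160, 0.131 and 0.085 for WT and cKO. For IP and input they correlated at 0.394, -6.4e-04 and 0.344. The labels do not state a pairing, and the main fits took the libraries as unpaired. For IP and input these values do not settle whether the numbers pair libraries. Of the libraries, 5 of 8 and 4 of 6 correlated best with the library of their own number. With the replicate block the count in cKO was 4, and with Grm4 at an adjusted p of 0.270 the block changed no call. In the pull-down comparison the replicate block left 0 members past limma. The rotarod columns carry numbers that match no title, so no block was fitted there, and the cKO pull-down comparison lists no member and gave no value. The counts for training and the pull-down moved only where the adjustment ran over the listed genes alone or the authors' deposited values were used: to 1 member for training and to 2 for the pull-down under each. Cbln1 ran from -0.51 to -0.36 over its 15 alternatives, and the count with 1 library left out stayed at 0 for training and for the pull-down. In the pull-down, Grm4 ran from 0.77 to 1.83 and Slc17a7 from 0.55 to 1.36, lowest for both with median centering. Slc17a7 lay below the median level of its table and has no value under the level filter. With 3 libraries a group, the exact test cannot pass 0.05, and input depth is unknown.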

Other observations

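Genes next to or overlapping the members in the reference annotation, used for neighborhood only because its build differs from that of the files, were looked up after the member values were seen. Next to Calb2, the RNA cap methyltransferase gene Cmtr2 rose by 0.48 ± 0.10 in cKO (limma adjusted p = 0.0148). Beside Pax6, Rcn1 differed by 0.44 ± 0.14 and did not pass limma (adjusted p = 0.0822), and Elp4, whose span overlaps that of Pax6, was not listed. Next to Cbln3, Khnyn differed by -0.30 ± 0.10, and next to Zic2, Pcca, a mitochondrial carboxylase subunit gene, differed by -0.25 ± 0.07 (limma adjusted p = 0.102 and 0.0535). Lemd2, next to Grm4, differed by -0.18 ± 0.06 (limma adjusted p = 0.0788). Next to Cbln1, N4bp1 was at 0.27 ± 0.09 after training and did not pass limma (adjusted p = 0.496).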
